A study of Mus musculus with 4 samples.

Results

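The C/EBP transcription factors are basic leucine zipper proteins, which bind DNA as pairs and act as early relays between hormones or cytokines and the genes of metabolism, inflammation and fat cell formation. Here they were represented by Cebpa, Cebpb and Cebpd, and every probe set whose only annotated gene symbol was one of these 3 was taken. Each gene had 1 such probe set, so the family came to 3 of 12422 non-control probe sets and 3 of 8251 genes. Signals were read in mouse gastrocnemius, a calf muscle of mostly fast fibres, on 4 MG-U74Av2 oligonucleotide arrays, 1 per group, each with RNA pooled from 10 mice. One group was intact, one had been adrenalectomized 1 week earlier, and the other two were adrenalectomized and given 0.1 mg of cortisol into the peritoneum 3 h or 24 h before the muscle was taken. The interval after surgery was given for the uninjected adrenalectomized group alone. The labels gave no vehicle or sham-operated group, strain, sex, age or time of day.

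Adrenalectomy takes away the source of corticosterone, the glucocorticoid that mice make, and injected cortisol binds the same receptor. Cebpb and Cebpd are known as rapidly induced genes in many tissues, where glucocorticoids, interleukin-6 and cyclic AMP raise their transcripts. Cebpa is better known from liver and fat, where it maintains the differentiated state and is switched on after the other C/EBP genes in maturing fat cells. In muscle, C/EBPβ has been described as a factor of glucocorticoid-driven wasting and of satellite cells, the stem cells of the fibre.

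Promoters are shown because Cebpa and Cebpb differed in their time course on these arrays, but a link between letters and time course was not tested. RefSeq windows on GRCm38.p6 were found for 2 of the 3 genes, with none for Cebpd. The 250 bases before the annotated start are printed below, both on the plus strand, with motif matches in capitals. The window of Cebpa is chr7:35119043-35119292 and that of Cebpb is chr2:167688665-167688914.
Cebpa: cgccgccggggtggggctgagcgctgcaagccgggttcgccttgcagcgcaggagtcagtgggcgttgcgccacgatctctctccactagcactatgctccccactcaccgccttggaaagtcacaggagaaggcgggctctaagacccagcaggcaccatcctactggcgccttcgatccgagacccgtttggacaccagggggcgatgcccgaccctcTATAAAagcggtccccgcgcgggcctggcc
Cebpb: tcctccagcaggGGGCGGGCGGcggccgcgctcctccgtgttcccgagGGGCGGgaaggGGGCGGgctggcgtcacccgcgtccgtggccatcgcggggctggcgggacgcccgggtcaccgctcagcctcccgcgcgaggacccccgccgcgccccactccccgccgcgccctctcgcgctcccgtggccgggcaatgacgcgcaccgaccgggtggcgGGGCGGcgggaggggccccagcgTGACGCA

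The search covered both strands of the full 300-base windows, which run to 50 bases after the start. Cebpa held a TATA box (TATAAA) from 30 to 25 bases before its start. Cebpb held one from base 22 to base 27 after its annotated start, and 13.6% of 32851 windows in the table held these letters. The window of Cebpb also had 5 GC boxes (GGGCGG, found in 35.7% of windows), 2 of them overlapping. It ended in the cyclic AMP element variant TGACGCA, from 7 to 1 bases before the start, which 2.12% of windows held. Neither window had the letters TGACGTCA (1.79%), TTGCGCAA (0.183%), TTGCNNAA (10.8%), TTCNNNGAA (8.30%), TTCCNGGAA (1.15%) or CCAAT (37.4%), or the palindromic glucocorticoid response element (0.475%). A match is no binding site, and sequence outside these windows was not searched. The upstream part of Cebpb was 81.6% G and C and that of Cebpa 66.4%, beside a median of 52.4% over all windows.

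Cebpd and Cebpb were higher 3 h after cortisol than on any other array, Cebpd by far more. At 24 h both differed from the intact array by less than the error SD, which was read from genes with a second probe set. Cebpa differed little among the 4 arrays. Cebpd was also higher after adrenalectomy alone than in intact muscle, and lower at 24 h than on the adrenalectomized array. With 1 array of pooled RNA per group no test was possible. In such bulk RNA, a change in the number of cells that carry a transcript and a change in transcript per cell cannot be told apart.

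**Figure D1:**
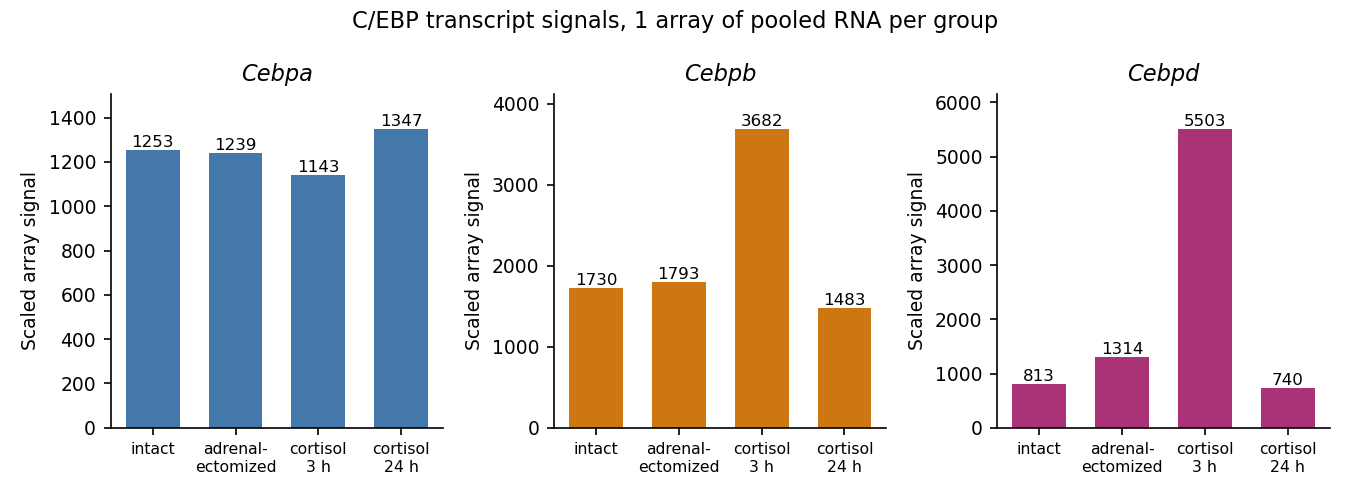
Scaled array signals (vertical axis, linear, starting at 0) of Cebpa, Cebpb and Cebpd on the intact, adrenalectomized, 3 h and 24 h arrays; each bar is 1 array of RNA pooled from 10 mice, so there is no error bar. Cebpd reached 5503 and Cebpb 3682 at 3 h, while Cebpa lay between 1143 and 1347 on the 4 arrays.

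Cebpd, which encodes C/EBPδ, read 813 in intact muscle, 1314 on the adrenalectomized array, 5503 at 3 h and 739.5 at 24 h. The 3 h array was thus the high one, the adrenalectomized array came next, and the intact and 24 h arrays were the low pair. From lowest to highest the fold between the extremes was 7.44. Cebpb, which encodes C/EBPβ, read 1730.0 in intact muscle, 1793 on the adrenalectomized array, 3682 at 3 h and 1483 at 24 h. Its 3 h array was again the high one, and the other 3 arrays lay within 1.21-fold of one another. Cebpa, which encodes C/EBPα, read 1253 in intact muscle, 1239 on the adrenalectomized array, 1143 at 3 h and 1347 at 24 h. Its lowest array was the 3 h array, and its whole span was 1.18-fold. All 3 genes were bright probe sets, with a mean signal above that of 91.5% of genes for Cebpd, 91.9% for Cebpb and 85.3% for Cebpa.

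The number of arrays limits the precision of every ratio. The only error that could be read from the data came from genes with a second probe set. For a log2 ratio, the SD of this error was 0.24 between adrenalectomized and intact, 0.28 between 3 h and adrenalectomized, and 0.32 between 24 h and adrenalectomized. It was 0.31 between 24 h and 3 h, and 0.27 and 0.32 between these 2 injected groups, 3 h first, and intact. Variation among mice, pools and dissections is not part of it, nor is any error of an array that both probe sets of a gene share. Each array also had a fluidics module of its own, so the groups cannot be told apart from the pools or the modules. The comparisons share arrays and are not independent of one another.

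The 3 h array was set against the adrenalectomized array, whose mice were not injected. There was no vehicle group, so the effects of the injection and of the hormone cannot be told apart here. Cebpd was 4.19-fold higher, a log2 ratio of 2.07, and ranked 24th from the top of 6168 genes. Cebpb was 2.05-fold higher, a log2 ratio of 1.04, and ranked 108th. These ratios were 7.38 and 3.71 times the SD of the error, whereas that of Cebpa, at -0.12, was within it. Hence 2 of the 3 genes were at least 2-fold higher, beside 1.86% of all genes compared. Cebpb lay close to that limit: with the arrays scaled to ribosomal protein probe sets it was 1.80-fold higher, a log2 ratio of 0.85, with the median of all genes at -0.20. Cebpd stayed between 1.88 and 2.09 over the 8 alternatives tried. The ratio of Cebpd exceeded that of Cebpb by 1.03 on the log2 scale, 2.60 times the SD of the error of such a difference, and that of Cebpa by 2.18, or 5.51 times it.

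Genes of similar brightness give a second view of the spread between the same arrays. Brightness is the mean signal over the 4 arrays, which the 3 h value raises for Cebpd. The genes matched to Cebpd had means from 1534 to 2855, above its own signal on every array but the 3 h one. Of the 500 genes closest to Cebpd in mean signal, the central 95% had log2 ratios from -0.48 to 0.59 at 3 h against adrenalectomized, and 2 reached the ratio of Cebpd. For Cebpb the range was -0.48 to 0.69 and 8 of 500 reached its ratio. Cebpa lay well inside its own range of -0.45 to 0.61.

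**Figure D2:**
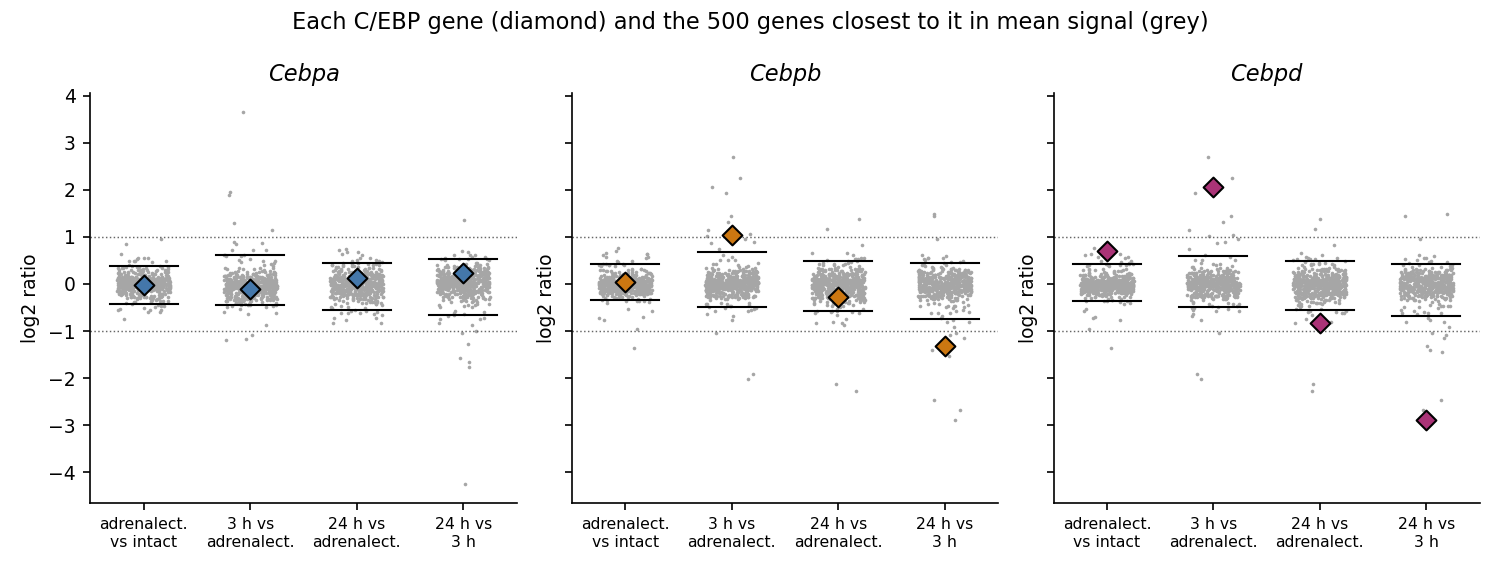
Log2 ratios (vertical axis) in 4 comparisons for each C/EBP gene (diamond) and for the 500 genes closest to it in mean signal (grey points, 1 per gene); black bars bound the central 95% of the grey points and dotted lines mark 2-fold. Cebpd lies outside the bars in all 4 comparisons shown, Cebpb in 3 h against adrenalectomized and 24 h against 3 h, and Cebpa in none.

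The 3 h array was also compared with the intact array, which does not use the adrenalectomized one. Cebpd was 6.77-fold higher than in intact muscle, ranked 15th of 6162 genes, and none of the 500 genes of like brightness reached its log2 ratio of 2.76. Cebpb was 2.13-fold higher, with a log2 ratio of 1.09 that ranged from 1.02 to 1.09 over the alternatives. Cebpa had a log2 ratio of -0.13. The 2 genes past 2-fold stood beside 1.83% of all genes.

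The adrenalectomized array was compared with the intact array. There was no sham-operated group, so the effects of surgery and of losing adrenal hormones cannot be told apart here. None of the 3 genes passed 2-fold in either direction, beside 0.344% of genes higher and 0.376% lower. Cebpd was 1.61-fold higher, a log2 ratio of 0.69 and 2.89 times the SD of the error, and 1 of the 500 genes of like brightness reached that ratio. It ranged from 0.63 to 0.81 over the alternatives. Cebpb and Cebpa had log2 ratios of 0.05 and -0.02, both within the error, and for each of them the sign turned under 1 of the 8 alternatives. Cebpd exceeded Cebpb by 0.64 on the log2 scale, 1.89 times the SD of the error of a difference.

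At 24 h after cortisol no C/EBP gene was at least 2-fold away from the adrenalectomized array, beside 1.27% of genes higher and 1.06% lower. Cebpd was nearest to the limit, 1.78-fold lower with a log2 ratio of -0.83, and 3 of the 500 genes of like brightness were as low. Under scaling to ribosomal protein probe sets it was 2.16-fold lower, a log2 ratio of -1.11, with the median of all genes at -0.27. Cebpb was 1.21-fold lower, at -0.27 on the log2 scale, and this was smaller than the SD of the error. Cebpa was 1.09-fold higher, at 0.12, and its sign turned under ribosomal scaling.

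Between 3 h and 24 h the signals of Cebpd and Cebpb came down again. Cebpd was 7.44-fold lower at 24 h, the 5th lowest log2 ratio of 6229 genes at -2.90, and none of the 500 genes of like brightness was as low. Cebpb was 2.48-fold lower, a log2 ratio of -1.31, ranked 69th from the bottom. These 2 of the 3 genes were at least 2-fold lower, beside 1.96% of all genes, and both held this under all 8 alternatives. The ratio of Cebpd minus that of Cebpb was -1.58 on the log2 scale here, which is -3.64 times the SD of the error of a difference. Cebpa had a log2 ratio of 0.24, positive under all 8 alternatives but smaller than the error SD.

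Against the intact array, the 24 h values were close for all 3 genes. Cebpd had a log2 ratio of -0.14, Cebpb of -0.22 and Cebpa of 0.10, each within the SD of the error of 0.32. None passed 2-fold, beside 1.11% of genes higher and 1.01% lower. In the order of its 4 levels Cebpd therefore had 2 steps larger than the error, from intact to adrenalectomized and from there to 3 h. Cebpb had 1 such step, from adrenalectomized to 3 h, and Cebpa had none.

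**Figure D3:**
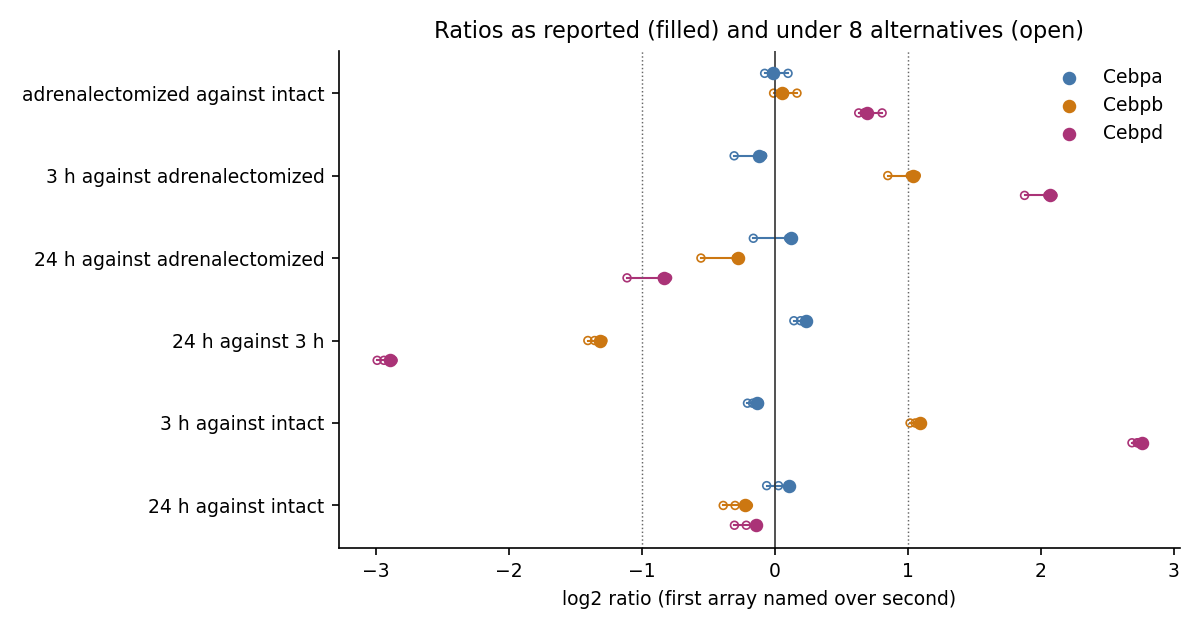
Log2 ratios (horizontal axis) of Cebpa, Cebpb and Cebpd in 6 comparisons; filled points are the values reported and open points those under 8 alternatives of scaling, floor and probe set choice, with dotted lines at 2-fold. The open point of Cebpb at 0.85 in 3 h against adrenalectomized and that of Cebpd at -1.11 in 24 h against adrenalectomized are the ones that cross a dotted line.

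The remaining C/EBP genes and the basic leucine zipper proteins that pair or compete with them showed no common shift. Of 14 listed, 11 had a probe set and 10 reached the floor of 100. Their median log2 ratio was -0.06 at 3 h against adrenalectomized, where the median of all genes was -0.02. Of these 10, 0 were at least 2-fold higher and 1 was at least 2-fold lower, beside 115 and 72 of all 6168 genes. Cebpg, which encodes a C/EBP protein without an activation domain, read 436 in intact muscle, 483 after adrenalectomy, 557 at 3 h and 488 at 24 h. It was within 1.28-fold throughout and so had nothing like the 3 h peak of Cebpd. Ddit3, which encodes the stress protein CHOP, a dominant partner of C/EBP proteins, read 247, 298, 118 and 310.0 in that same order. It was 2.52-fold lower at 3 h than on the adrenalectomized array, opposite in direction to Cebpb and Cebpd. Atf3, a stress-induced repressor, was 1.88-fold higher at 3 h, on a probe set with shared or relaxed probes. Dbp, a clock output gene of a related class, was 2.10-fold higher at 24 h than on the adrenalectomized array. In that comparison 1 of 10 list genes was at least 2-fold higher and 0 lower, beside 79 and 66 of 6228 genes. The list median there was 0.13, and it became -0.15 under ribosomal scaling. Against intact muscle, the adrenalectomized array had a list median of 0.09 with 0 genes past 2-fold, beside 44 of 6112 genes. Tef, a relative of Dbp, was 1.48-fold higher there, and Nfil3, a repressor of the same sites, 1.44-fold lower, on a probe set with shared or relaxed probes. At 24 h Tef was 1.28-fold lower than on the adrenalectomized array.

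Genes that induce the C/EBP genes or modify their proteins had smaller floored ratios than Cebpd and Cebpb at 3 h against adrenalectomized, where the highest was a bound, at least 1.78-fold for Egr2, an early response gene. Of 32 listed, 22 had a probe set, and 0 of the 17 or 18 compared passed 2-fold in any main comparison. Among all genes, 44 of 6112 did so for adrenalectomized against intact. Against adrenalectomized, 187 of 6168 did at 3 h and 145 of 6228 at 24 h, so 0 in a list this short says little about these genes. The medians were -0.06 for adrenalectomized against intact, 0.08 for 3 h and -0.07 for 24 h against adrenalectomized, and the first 2 changed sign under ribosomal scaling. The glucocorticoid receptor gene Nr3c1 read 275 in intact muscle, 311 after adrenalectomy, 197 at 3 h and 260.2 at 24 h. It was 1.58-fold lower at 3 h than on the adrenalectomized array, the lowest ratio of the list. Klf5, a fat cell regulator that cooperates with C/EBP proteins, was 1.73-fold higher at 3 h and 1.38-fold higher at 24 h. Il6ra, the interleukin-6 receptor gene, read 240.2, 290, 454 and 254 in that order, and so had its highest value on the same array as Cebpb and Cebpd. Il1r1, an interleukin-1 receptor gene, had a log2 ratio of -0.38 after adrenalectomy, and Crem, a gene of cyclic AMP signalling, was 1.38-fold lower at 24 h on a probe set with shared or relaxed probes. The cytokine genes Il6, Tnf and Il1b stayed below the floor on all 4 arrays. Stat3, the transducer of interleukin-6 signals, lay between 1213 and 1272.

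Acute phase genes, many of which carry C/EBP sites in liver, went both ways at 3 h. Of 22 listed, 20 had a probe set and 13 or 14 were compared. At 3 h against adrenalectomized 0 passed 2-fold in either direction, beside 187 of 6168 genes, and the median was -0.07. Serpina3n, a protease inhibitor gene, was 1.46-fold higher at 3 h, and the fibrinogen gene Fga was 1.57-fold lower. Orm1, the gene of a plasma acid glycoprotein, read 116, 93.9, 156 and 92.9 from the intact array to the 24 h array, so that at 3 h it was at least 1.56-fold above both the adrenalectomized and the 24 h array. At 24 h the list median was 0.08, which became negative under ribosomal scaling and under quantile normalization. Beside 79 of 6228 genes, 1 list gene was at least 2-fold higher. That gene was Csf3, a granulocyte growth factor gene, at 2.28-fold, while Fga was 1.84-fold lower. After adrenalectomy the median was -0.19, beside 0.01 for all genes. Fgb is on both this list and that of hepatocyte markers, but it was below the floor on all 4 arrays and entered neither median. Hepatocyte markers were also lower after adrenalectomy, with a median of -0.54 and 4 of 8 at least 1.5-fold lower, beside 137 of 6112 genes. Their median was -1.08 at 3 h and -1.50 at 24 h against adrenalectomized, and their part in the acute phase ratios was not tested. On the adrenalectomized array the haptoglobin gene Hp was 1.46-fold lower and the serum amyloid gene Saa3 1.67-fold higher than in intact muscle. In that comparison 0 acute phase genes passed 2-fold, beside 44 of 6112 genes.

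Fat cell genes known to depend on C/EBP proteins had medians near 0 on the injected arrays against the adrenalectomized one. Of 19 listed, 15 had a probe set, and 0 of the 13 or 14 compared passed 2-fold in any main comparison. Among all genes, 44 of 6112 did so for adrenalectomized against intact. Against adrenalectomized, 187 of 6168 did at 3 h and 145 of 6228 at 24 h, so a count of 0 here says little. The medians were -0.12 for adrenalectomized against intact, 0.03 for 3 h and 0.02 for 24 h against adrenalectomized, and the last 2 became negative under ribosomal scaling. Pparg, the main partner of Cebpa in fat cell formation, was below the floor on all 4 arrays, on a probe set with shared or relaxed probes. Agt, the angiotensinogen gene, read 284 in intact muscle, 169 after adrenalectomy, 235 at 3 h and 84.8 at 24 h. It was 1.68-fold lower after adrenalectomy and 1.39-fold higher at 3 h, and at 24 h it was at least 1.69-fold below the adrenalectomized array and at least 2.35-fold below the 3 h array. It was the 1 list gene past 2-fold for 24 h against 3 h, where the list median was -0.04 and 204 of 6229 genes passed 2-fold. Retn, which encodes resistin, was 1.19-fold lower at 3 h. Cd36, a fatty acid transporter gene, was 1.17-fold higher after adrenalectomy and 1.38-fold lower at 24 h, and Dgat1, an enzyme gene of fat synthesis, was 1.42-fold higher at 24 h.

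Metabolic and muscle genes linked to C/EBP proteins went both ways at 3 h. Of 21 listed, 17 had a probe set. Of the 15 compared at 3 h against adrenalectomized, 2 passed 2-fold upward and 2 downward, beside 115 and 72 of all 6168 genes. Their median was 0.02, which became negative under ribosomal scaling. The higher pair were the metallothionein genes Mt2 and Mt1, at 6.52-fold and 3.47-fold, which bind metals and are also direct targets of the glucocorticoid receptor. The lower pair were Myod1, a driver of muscle differentiation, at 2.29-fold, and Cps1, a urea cycle gene of liver, at 2.02-fold. Foxo3, a wasting factor, read 541, 524, 874 and 551, and Mstn, the myostatin gene, 2347, 1986, 2938 and 2469, from the intact array to the 24 h array. Both had their highest value on the 3 h array. At 24 h against adrenalectomized 0 of 15 passed 2-fold, beside 145 of 6228 genes, and the median was -0.09. The coactivator gene Ppargc1a had a log2 ratio of -0.58, and Igfbp1 was 1.40-fold higher on a probe set with shared or relaxed probes. After adrenalectomy the median was -0.13, and 0 of 16 passed 2-fold, beside 44 of 6112 genes. The growth factor gene Igf1 was 1.39-fold higher and Cps1 1.31-fold lower.

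Beside genes known to be induced by glucocorticoids, Cebpd had one of the larger ratios at 3 h against adrenalectomized and Cebpb an intermediate one. The list was chosen with earlier results of these data known, so its counts and median are no independent yardstick. Of 24 list genes compared, which did not include the C/EBP genes, 10 were at least 2-fold higher at 3 h than on the adrenalectomized array and 0 lower. Their median was 0.74, and 1.86% of all genes were at least 2-fold higher. Of these 24 list genes, some lay above Cebpd. Higher ratios than that of Cebpd were found for 4 list genes: Ddit4, an inhibitor of growth signalling, at 12.6-fold, Map3k6 at no less than 7.58-fold, Mt2 at 6.52-fold and the receptor chaperone gene Fkbp5 at 4.74-fold. Nfkbia (3.86-fold), Gadd45g (3.70-fold), Mt1 (3.47-fold), Per1 (3.22-fold), Errfi1 (2.51-fold) and Sesn1 (2.47-fold) lay between Cebpd and Cebpb. The other 14 genes were lower than Cebpb, and 20 of the 24 were higher than Cebpa. Tsc22d3, a leucine zipper gene known as a target of the receptor, was 1.65-fold lower.

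On the adrenalectomized array the ratio of Cebpd to intact muscle was higher than that of all 23 glucocorticoid-induced genes compared, whose median was -0.07, a sign that turned under ribosomal scaling. The nearest was Tsc22d3 at 1.45-fold higher, and Fkbp5 was 1.70-fold lower. At 24 h against adrenalectomized, 21 of the 23 had a higher ratio than Cebpd. The list median was 0.07, which became -0.21 under ribosomal scaling. Beside 79 of 6228 genes at least 2-fold higher and 66 lower, the list had 0 higher and 1 lower. That was Pdk4, a brake on glucose oxidation, at 3.07-fold lower, while Fkbp5 was 1.78-fold higher. Pik3r1, a subunit gene of phosphoinositide 3-kinase, was the other gene with a lower ratio than Cebpd.

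**Figure D4:**
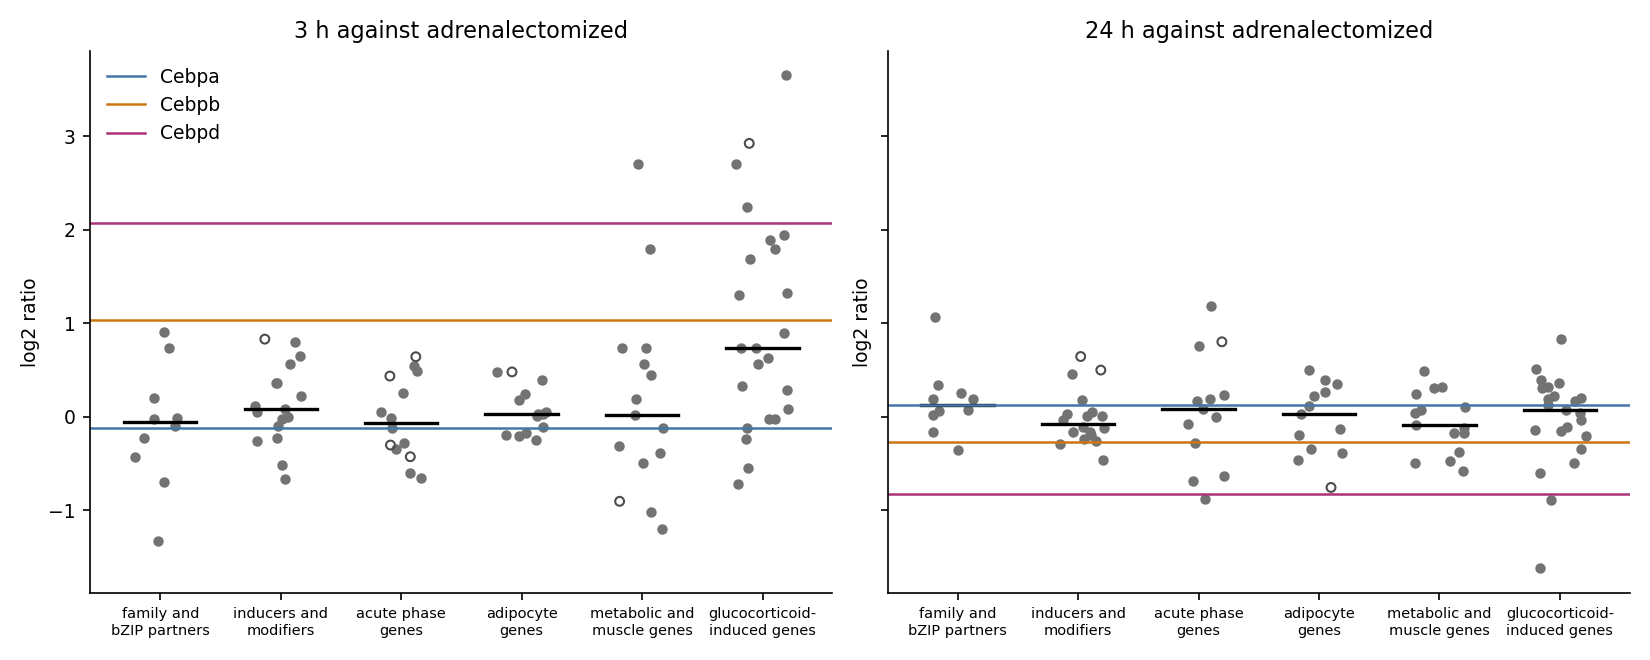
Log2 ratios (vertical axis) of the genes of 6 lists at 3 h (left) and 24 h (right) against adrenalectomized; filled points were read above the floor on both arrays, open points on 1 of them and are bounds, and black bars are list medians. Coloured lines give Cebpa, Cebpb and Cebpd; at 3 h the line of Cebpd at 2.07 lies above the medians of all 6 lists, of which the highest is 0.74.

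Genes with the most similar pattern were sought among 5451 others that reached the floor on all 4 arrays, by the root mean square difference of log2 signals after each gene's mean had been taken off. The measure rests on 4 arrays and describes them alone. The 5 nearest to Cebpb were Pkp4, a cell junction gene, at 0.06, Wbp1l at 0.08, the stress-responsive gene Ndrg1 at 0.10, the zinc finger gene Zbtb16 at 0.10 and the sulfotransferase gene Sult1a1 at 0.10. Their 3 h to adrenalectomized log2 ratios were 1.14, 0.96, 0.84, 0.89 and 1.17, with that of Zbtb16 read from shared or relaxed probes. Within 0.2 of Cebpb there were 42 genes. Cebpd had none within 0.2. Its 5 nearest were the small GTPase gene Rhob at 0.29, Mt2 at 0.34, the chemokine receptor gene Ackr3 at 0.37, the transcription factor gene Sox4 at 0.39 and the amino acid transporter gene Slc7a8 at 0.39. Rhob read 1648 in intact muscle, 1730.1 on the adrenalectomized array, 6626 at 3 h and 1198 at 24 h. All 5 shared the peak at 3 h, while their adrenalectomized to intact log2 ratios, from -0.07 for Mt2 to 0.39 for Sox4, were below the 0.69 of Cebpd. For Cebpa, which spanned less than 2-fold, 1302 of the 5451 genes lay within 0.1.

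**Figure D5:**
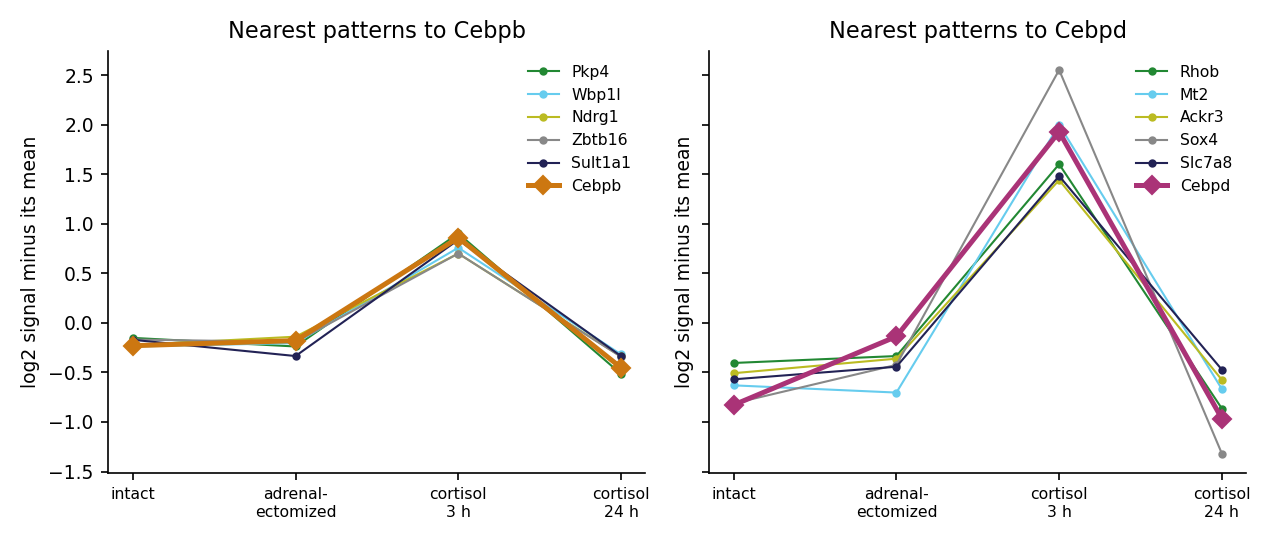
Log2 signal minus the gene's own mean (vertical axis) on the 4 arrays for Cebpb (left) and Cebpd (right), each with the 5 genes of most similar pattern; points are single arrays. The lines around Cebpb nearly coincide, while those around Cebpd peak at 3 h with it but stay below it on the adrenalectomized array.

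Markers of other cells also differed between these arrays. Epidermis and hair follicle genes, from a tissue known to carry C/EBP proteins, had a summed signal of 1569, 1747, 11295 and 3381 from the intact array to the 24 h array. Of 14 on the array, 6, 7, 11 and 11 reached the floor, and the basal keratin genes Krt14, Krt5 and Krt15 stayed below it on all arrays. This sum was highest on the same array as Cebpb and Cebpd. At 24 h it was above its adrenalectomized value, and Cebpd and Cebpb were below theirs. The part of this tissue in the C/EBP signals was not tested. The slow fibre sum was 58850, 66958, 19342 and 17832 over 8 genes, low on both injected arrays, and the part of fibre type was not tested either. The hepatocyte sum over 9 genes was 4303, 2945, 1439 and 1005, with Fgb below the floor on all arrays.

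The sums of other markers lay in narrower ranges. Adipocyte sums ran from 19524 to 21199 over 7 genes, with Pparg below the floor on all arrays. Car3 alone, at 16265 to 17911, made up most of each sum, so the range mainly reflects that 1 gene. For the 6 adipocyte genes compared, the median log2 ratio was -0.21 for adrenalectomized against intact, a sign that turned under ribosomal scaling. Against adrenalectomized it was -0.03 at 3 h and -0.06 at 24 h. Macrophage sums ran from 3680 to 4509 over 10 genes, with Itgam below the floor, and were lowest at 3 h. The median log2 ratio of the macrophage genes compared was 0.18 for adrenalectomized against intact. Against adrenalectomized it was -0.37 at 3 h, beside -0.02 for all genes, and -0.10 at 24 h. Neutrophil sums ran from 1472 to 1887 over 8 genes, with S100a9, Ltf and Ngp below the floor. Csf3r alone, at 818 to 977, made up most of each sum. For the 5 neutrophil genes compared, the median log2 ratio against adrenalectomized was 0.04 at 3 h and 0.24 at 24 h. Both became negative under ribosomal scaling. At 24 h against intact it was 0.41. Satellite cell sums ran from 1420.2 to 1526 over 5 genes, with Myf5 below the floor. Fast fibre genes, which define this muscle, were at or above the floor for all 8 on every array and summed to between 168114 and 174806. The part of any of these cells in the C/EBP signals was not tested. The 3'/5' ratios of the array's own controls were 0.83 to 0.89 for Gapdh and 1.04 to 1.10 for actin.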

How the data were processed

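Each of the 4 groups had 1 array of RNA pooled from 10 mice, with no replicate, per the labels. Per the labels, the authors used MAS 5.0 to turn the scanned images into the deposited intensity of each probe set, which is on a linear scale. The deposited arrays shared a trimmed mean of 500 to 500.6, 2% off each end. Here each was rescaled to 500 over the 12422 non-control probe sets, signals under 100 were set to 100, which shrinks ratios of dim genes, and log2 ratios were taken (Python 3.11.15, pandas 2.3.3). Where the dimmer signal was under 100, a fold is a lower bound. The platform annotation gave 1 symbol for 10833 probe sets, several for 396 and none for 1193, and 10817 matched the RefSeq gene table by ID, used for names only. Each gene was read from its brightest probe set.

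The error SD came from 914 to 928 genes with a second probe set at or above the floor on both arrays: the SD of the difference between the sets' ratios, divided by the square root of 2. No test was run, and 2-fold is a rule of size. Floors, scalings and probe set choices were varied. Named genes were the members, list genes past 2-fold or with the largest measured ratio each way in a main comparison, and the nearest patterns; Cebpg, Orm1, Egr2, Il6ra, Stat3, Foxo3, Mstn, Pik3r1 and the genes below the floor were chosen after their values were seen. The members and lists were chosen with earlier results of these data known. Scaling and counts were tested on simulated data. A planned comparison of C/EBP proteins was not made.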

Additional observations from a re-analysis of the deposited data

How the results depend on the processing

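Under 8 alternatives (floors of 50 and 200, no floor with a pseudocount of 16, median, ribosomal and quantile scaling, the mean of all probe sets, and no shared or relaxed probe sets) the ratios of Cebpd and Cebpb kept their sign in all 6 comparisons, except Cebpb in adrenalectomized against intact, which ranged from -0.01 to 0.17. Ribosomal scaling moved Cebpb at 3 h against adrenalectomized from 1.04 to 0.85, under 2-fold, and Cebpd at 24 h from -0.83 to -1.11, past it, since it lowered all ratios of the injected arrays to the adrenalectomized one. Cebpa ranged from -0.08 to 0.10 for adrenalectomized against intact, from -0.16 to 0.14 for 24 h against adrenalectomized and from -0.06 to 0.11 for 24 h against intact, so its direction there is unsettled. The count of genes past 2-fold depended on the floor and on the scaling. For adrenalectomized against intact, 21 higher and 23 lower became 101 and 92 with a floor of 50 and 4 and 7 with 200, 37 higher under ribosomal scaling and 13 lower when both arrays had to reach the floor. For 3 h, 115 and 72 became 214 and 157, and 68 and 34, with those floors, and 118 lower under ribosomal scaling. For 24 h, 79 and 66 became 196 and 158, and 17 and 26, then 38 and 153 under ribosomal scaling, 43 and 39 with both arrays at the floor, and 52 higher with the mean of all probe sets. The list medians under median and quantile scaling were chosen after seeing the data. No paired analysis was possible because each group had 1 array and no test was run.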
